A study of Mus musculus with 14 samples.

Results

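Skeletal muscle of the limb is built by cells that migrate into the limb bud from the somites, and the transcripts of 8 genes used by these cells were followed here in mouse forelimb buds: *Pax3*, *Pax7*, *Lbx1*, *Six4*, *Eya1*, *Eya2*, *Met* and *Cxcr4*. The 8 genes were found by their symbols among the 23284 gene symbols counted in each of 14 RNA-seq samples. The buds came from wild-type embryos (Smad4+/+ PrxCreT/+, 3 embryos per stage) and mutant embryos (Smad4Δ/Δc PrxCreT/+, 4 embryos per stage) at 30 somites, which corresponds to E10.0, and at 35 somites (E10.5). The labels give NMRI as the strain. Both genotypes carried the Cre transgene. The mutants had 1 constitutive null allele of *Smad4*, the shared intracellular mediator of BMP and TGFβ signalling, and 1 conditional allele that Cre inactivates. Cre was driven by *Prrx1* sequences, which are active in the limb bud mesenchyme, whereas the muscle precursors are of somite origin. Both forelimb buds of an embryo were pooled into 1 sample, so that every sample mixes mesenchyme, ectoderm, vessels, blood and the migrating precursors.

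The precursors delaminate from the ventrolateral lip of the dermomyotome, migrate into the limb field and start to differentiate only after they have reached the dorsal and ventral muscle masses. PAX3 is the transcription factor that specifies them and activates *Met*, the receptor for hepatocyte growth factor, whose ligand HGF is made by the limb mesenchyme and releases the cells from the epithelium. LBX1 is a homeodomain protein of the migrating population and guides its routes, CXCR4 is the receptor through which CXCL12 steers migrating cells, and SIX4 acts with its EYA cofactors upstream of *Pax3* and the myogenic factors. The genes are not limited to these cells: *Six4*, *Eya1* and *Eya2* are also known from other limb bud cells, *Met* from epithelia, *Cxcr4* from endothelium and blood cells, and *Pax3* and *Pax7* from the neural crest and the dorsal neural tube.

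Each sample held 34066930 to 61691258 reads assigned to genes. *Smad4* was at 152 to 169 CPM (read counts scaled to a common library size, with the trimmed mean of M-values, TMM) in the 6 wild-type samples and at 32.9 to 46.0 CPM in the 8 mutant samples, as the labels require. The mutant replicates numbered 4 and 5 at both stages stood apart, with 1.72% to 8.05% of their reads on the ribosomal precursor *Rn45s* against 0.151% to 0.478% in the other 10 samples. No wild-type library was among them. Results that rest on them are given with and without them. Mesenchyme genes such as *Prrx1* (537 to 915 CPM over all samples) were abundant, whereas *Foxd3* and *Fabp7* of the neural crest and its glia were at 0 to 0.391 CPM. *Sox10*, which defines the same cells, was at 0 to 0.910 CPM at E10.0 and at 0.625 to 1.97 CPM at E10.5.

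In the mm9 build used by the counts, *Pax3*, *Eya1* and *Cxcr4* lie on the minus strand of chromosome 1, at 78097842 to 78193709, 14159035 to 14300281 and 130484776 to 130488870. *Pax7* spans 139292977 to 139389445 on the minus strand of chromosome 4, *Six4* 74201246 to 74214401 on the minus strand of chromosome 12 and *Lbx1* 45307178 to 45310301 on the minus strand of chromosome 19. *Met* lies on the plus strand of chromosome 6 (17413800 to 17523980) and *Eya2* on the plus strand of chromosome 2 (165480798 to 165597227). No exon of the 8 genes overlaps an exon of another gene in the GENCODE annotation of this build, which matters because the library type was unstranded.

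Promoter sequences (250 bases before to 50 bases after the transcription start, RefSeq, GRCm38.p6) were matched for 4 of the 8 genes, *Cxcr4*, *Pax7*, *Met* and *Six4*. The 2 of these that were called between stages in 1 genotype are shown so that the letters can be set beside the values below. Capitals mark the core of the MEF3 motif bound by SIX4 and related homeodomain proteins, TCAGGTT on either strand.
*Six4*, chr12:73113196-73113495, minus strand: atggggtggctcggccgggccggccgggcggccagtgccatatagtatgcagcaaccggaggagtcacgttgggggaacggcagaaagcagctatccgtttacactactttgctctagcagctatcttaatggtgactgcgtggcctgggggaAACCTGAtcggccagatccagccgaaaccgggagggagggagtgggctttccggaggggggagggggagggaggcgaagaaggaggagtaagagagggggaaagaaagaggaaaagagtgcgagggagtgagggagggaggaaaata
*Cxcr4*, chr1:128592250-128592549, minus strand: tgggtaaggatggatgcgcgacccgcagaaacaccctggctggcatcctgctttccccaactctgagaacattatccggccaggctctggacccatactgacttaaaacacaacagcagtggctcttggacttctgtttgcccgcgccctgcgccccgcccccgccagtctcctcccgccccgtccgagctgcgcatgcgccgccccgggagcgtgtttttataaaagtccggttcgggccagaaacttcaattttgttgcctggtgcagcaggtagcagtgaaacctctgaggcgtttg
The motif was present once in the window of *Six4*, written here as its reverse complement, and not in that of *Cxcr4*, the second start of *Six4*, *Pax7* or *Met*, and 4.07% of 32851 promoter windows of this length hold it. Of the other motifs searched on both strands, the E-box CANNTG (72.3% of all windows) occurred 2 times and GGCGCC (11.9%) 1 time in the window of *Met*, while the homeodomain core TAATTA (5.29%) was in none of the 5 windows. A match describes the letters and is not a binding site.

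Expressed per kilobase of exon, the levels of the 8 genes spanned a wide range. *Six4* was highest, with 8.97 to 13.3 CPM per kb over the 14 embryos and a mean of 10.9. *Eya1* (mean 7.76) and *Met* (7.56) followed, and their ranges of 5.85 to 9.98 and 5.93 to 9.40 CPM per kb nearly coincided. The receptor *Cxcr4* (5.42), *Pax3* (4.31) and *Eya2* (3.27) came next with overlapping ranges, and *Lbx1*, the gene of the set most closely tied to the migrating cells, was at 0.674 to 2.11 CPM per kb, below every embryo's value of *Eya2*. *Pax7* was lowest, at 0.0435 to 0.176 CPM per kb.

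**Figure D1:**
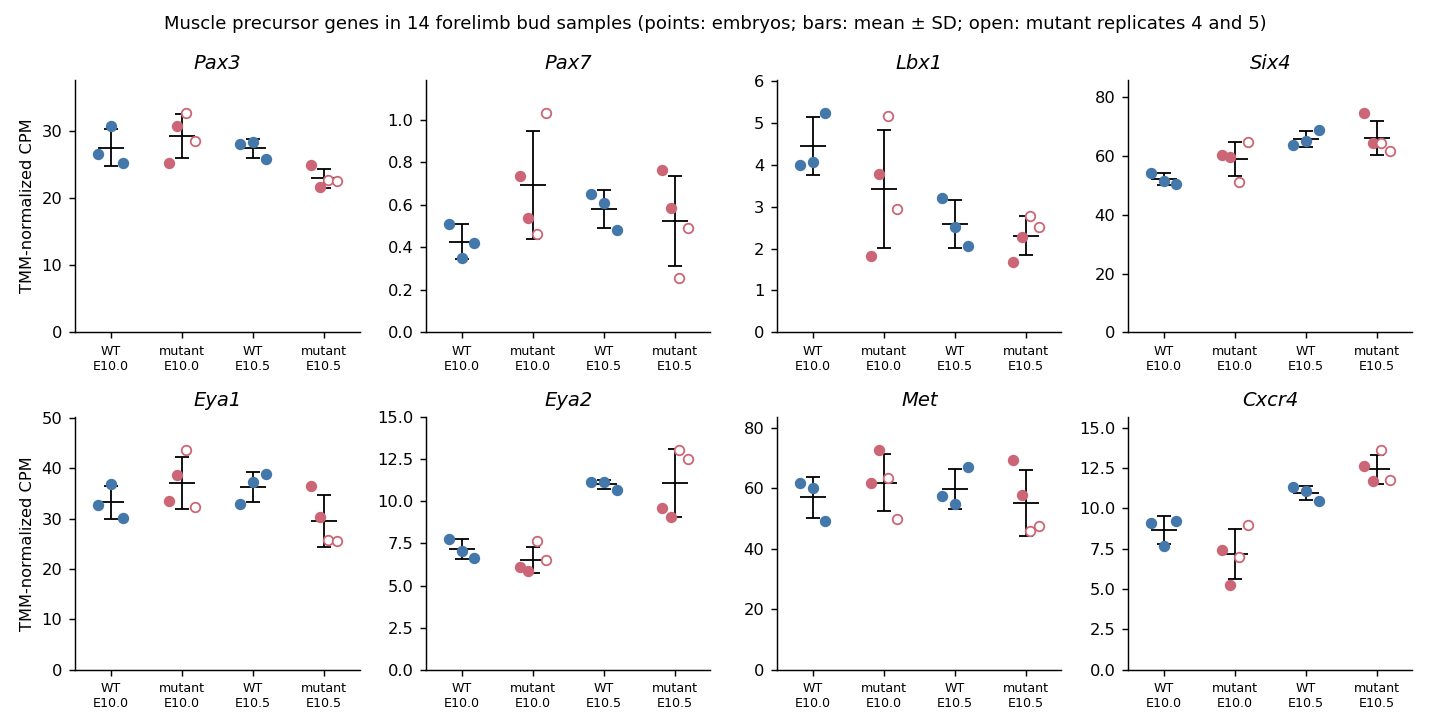
TMM-normalized CPM (vertical axis, from 0) of the 8 genes in each embryo, by genotype and stage; points are embryos, bars the mean ± SD, and open points the mutant replicates 4 and 5. *Eya2* and *Cxcr4* are higher in every mutant embryo at E10.5 than in every mutant embryo at E10.0, and *Lbx1* is lower in every wild-type embryo at E10.5 than in every wild-type embryo at E10.0.

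The first comparison asks whether loss of *Smad4* from the mesenchyme was accompanied by a different amount of precursor transcripts in the bud. The mutants also carried the constitutive null allele in all other cells, the precursors included. The comparison cannot separate this from the loss in the mesenchyme. None of the 7 genes tested was differentially expressed between genotypes at either stage. A gene was called at a false discovery rate (FDR, the Benjamini-Hochberg adjusted p of edgeR's exact test over all 12393 genes tested) up to 0.1, provided that it changed 1.2-fold or more. By this rule 0 of 7 were called at E10.0, where 6.61% of all genes tested were, and 0 of 7 at E10.5, where 3.73% were. The groups of embryos overlapped for all 7 at E10.0, whereas they did not for 17.8% of all genes. At this stage no gene of the set had an unadjusted edgeR p under 0.05, which 17.7% of all genes had. At E10.5, *Pax3* and *Eya1* had such a p, against 10.2% of all genes. The quasi-likelihood test of edgeR and DESeq2 also called 0 of the 7 at both stages. In a bulk sample, fewer precursor cells and less RNA per cell cannot be told apart, and neither can a change in 1 cell type be told from an opposite change in another.

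The log2 differences of the 7 genes at E10.0, mutant minus wild type, ran from -0.38 (*Lbx1*) to 0.18 (*Six4*) with a median of 0.09, beside a median of -0.02 over all genes. At E10.5 they ran from -0.29 (*Eya1*) to 0.18 (*Cxcr4*) with a median of -0.12, beside -0.01 over all genes. A test that missed the threshold does not show equal levels, so a 95% Wald interval from DESeq2, which gives its own estimates, is set beside the edgeR value of each gene below. The interval was narrowest for *Six4* and widest for *Lbx1*.

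Among the transcription factors, *Pax3* was at 26.6, 30.6 and 25.2 CPM in the wild-type embryos (replicates 1, 2 and 3) and at 25.1, 30.6, 32.7 and 28.4 CPM in the mutant embryos (replicates 1, 3, 4 and 5) at E10.0. The groups overlapped, and the log2 difference was 0.09 (interval -0.09 to 0.30, edgeR FDR = 0.741). At E10.5, *Pax3* was at 27.99, 28.28 and 25.80 CPM in wild type and at 24.9, 21.6, 22.6 and 22.5 CPM in the mutants (replicates 1, 2, 4 and 5). Every mutant embryo was then below every wild-type embryo, with a log2 difference of -0.26 (0.838-fold, interval -0.44 to -0.05), but the edgeR FDR was 0.297. Of all genes, 6.40% were lower in every mutant embryo at this stage. Without mutant replicates 4 and 5, the difference was -0.22 at E10.5 (edgeR FDR = 0.406).

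*Lbx1* was at 4.00, 4.07 and 5.24 CPM in wild type and at 1.81, 3.77, 5.16 and 2.95 CPM in the mutants at E10.0. The 4 mutant embryos spread over a range that held that of the wild-type embryos almost entirely, and the log2 difference of -0.38 was accordingly uncertain (interval -0.91 to 0.19, edgeR FDR = 0.499). At E10.5, the values were 3.20, 2.51 and 2.06 CPM in wild type and 1.67, 2.28, 2.77 and 2.51 CPM in the mutants. The groups overlapped again, with a log2 difference of -0.17 (interval -0.73 to 0.41, edgeR FDR = 0.949). Between 77 and 238 reads lay behind each of these values. Without mutant replicates 4 and 5, the difference was -0.65 at E10.0 (edgeR FDR = 0.125) and -0.38 at E10.5 (edgeR FDR = 0.613).

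*Pax7* was close to the detection limit in every sample. It was at 0.348 to 0.512 CPM in wild type and at 0.464 to 1.03 CPM in the mutants at E10.0, and at 0.481 to 0.649 and 0.255 to 0.765 CPM at E10.5. These values rest on 9 to 43 reads per sample, only 1 sample reached 1 CPM, and the gene was therefore not tested by edgeR. The groups overlapped at both stages, and the DESeq2 interval of the log2 difference was wide, from -0.05 to 1.47 at E10.0 and from -0.87 to 0.65 at E10.5.

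*Six4* was at 54.4, 51.6 and 50.5 CPM in wild type and at 60.5, 59.7, 51.1 and 65.0 CPM in the mutants at E10.0. One mutant embryo, replicate 4, fell within the wild-type range and the other 3 were above it, with a log2 difference of 0.18 (interval 0.02 to 0.37, edgeR FDR = 0.315). At E10.5, *Six4* was at 63.8, 65.1 and 68.8 CPM in wild type and at 74.8, 64.4, 64.4 and 61.6 CPM in the mutants. The groups overlapped, and the difference was 0.01 (interval -0.16 to 0.19, edgeR FDR = 1.0).

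*Eya1* was at 32.7, 36.8 and 30.2 CPM in wild type and at 33.5, 38.7, 43.6 and 32.3 CPM in the mutants at E10.0 (log2 difference 0.16, interval -0.09 to 0.44, edgeR FDR = 0.592). At E10.5, it was at 33.0, 37.2 and 38.8 CPM in wild type and at 36.5, 30.4, 25.8 and 25.6 CPM in the mutants. Mutant replicate 1 lay within the wild-type range and the other 3 mutants below it, with a log2 difference of -0.29 (interval -0.55 to -0.02, edgeR FDR = 0.356). Without mutant replicate 1, *Eya1* was called lower at E10.5 (log2 difference -0.40, edgeR FDR = 0.0503), and without mutant replicates 4 and 5 the difference was -0.11 (edgeR FDR = 0.741). The 2 lowest values of this comparison were thus those of the libraries that stood apart by *Rn45s*.

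*Eya2* was at 7.79, 7.03 and 6.63 CPM in wild type and at 6.07, 5.85, 7.62 and 6.54 CPM in the mutants at E10.0 (log2 difference -0.14, interval -0.40 to 0.16, edgeR FDR = 0.709). At E10.5, it was at 11.1, 11.2 and 10.7 CPM in wild type and at 9.62, 9.09, 13.05 and 12.54 CPM in the mutants. The wild-type embryos lay between the 2 lower and the 2 higher mutant embryos, and the higher ones were replicates 4 and 5. The log2 difference was 0.00 with all embryos (interval -0.26 to 0.28, edgeR FDR = 1.0) and -0.22 without these replicates (edgeR FDR = 0.485).

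Of the receptors, *Met* was at 61.8, 59.9 and 49.2 CPM in wild type and at 61.6, 72.6, 63.2 and 49.8 CPM in the mutants at E10.0 (log2 difference 0.12, interval -0.16 to 0.43, edgeR FDR = 0.729). At E10.5, it was at 57.3, 54.8 and 67.1 CPM in wild type and at 69.2, 57.6, 45.8 and 47.5 CPM in the mutants (log2 difference -0.12, interval -0.40 to 0.18, edgeR FDR = 0.910). The genotypes overlapped at both stages, and the lowest mutant value at each stage was that of replicate 5 or 4.

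*Cxcr4* was at 9.12, 7.69 and 9.20 CPM in wild type and at 7.42, 5.23, 6.99 and 8.98 CPM in the mutants at E10.0. Mutant replicates 1, 3 and 4 were below every wild-type embryo and replicate 5 was not, and the log2 difference of -0.28 was not called (interval -0.55 to 0.03, edgeR FDR = 0.330). Without mutant replicates 4 and 5 it was -0.44 and was called (edgeR FDR = 0.0640). That fit held 2 mutant embryos of this stage and called 2018 of 12288 genes, against 819 of 12393 with all embryos. At E10.5 the order was the opposite, with 11.3, 11.1 and 10.5 CPM in wild type and 12.6, 11.7, 13.6 and 11.8 CPM in the mutants. Every mutant embryo was above every wild-type embryo at this stage, as for 6.59% of all genes, but by a log2 difference of 0.18 that was not called (interval -0.10 to 0.47, edgeR FDR = 0.833). Of genes of other cells that express *Cxcr4*, 0 of 8 endothelial genes were called at E10.0 (6.61% of all genes) and 0 of 8 at E10.5 (3.73%). *Kdr*, *Emcn* and *Flt1* were nevertheless higher in every mutant embryo at E10.0 (log2 differences 0.30, 0.21 and 0.29, edgeR FDR = 0.105, 0.211 and 0.174). *Tie1* and *Cldn5* had negative differences at this stage (-0.14 and -0.22, groups overlapping), and the median of the 8 was 0.11. Of all genes, 17.8% did not overlap there in either direction. *Pecam1* was higher in every mutant embryo at E10.5 (0.19, edgeR FDR = 0.491). *Tek*, *Emcn* and *Cldn5* had negative differences there (-0.05, -0.03 and -0.11), and the median of the 8 was 0.11. Of 3 tested macrophage genes, *Cx3cr1* and *Ptprc* were called higher in the mutants at E10.0 (6.61% of all genes called). Their log2 differences were 1.34 and 0.94 (edgeR FDR = 2.12e-05 and 0.0687), with *Ptprc* at only 0.348 to 1.11 CPM. *Csf1r* was not called (0.69, edgeR FDR = 0.139). At E10.5, 0 of the 3 were called (3.73% of all genes).

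**Figure D2:**
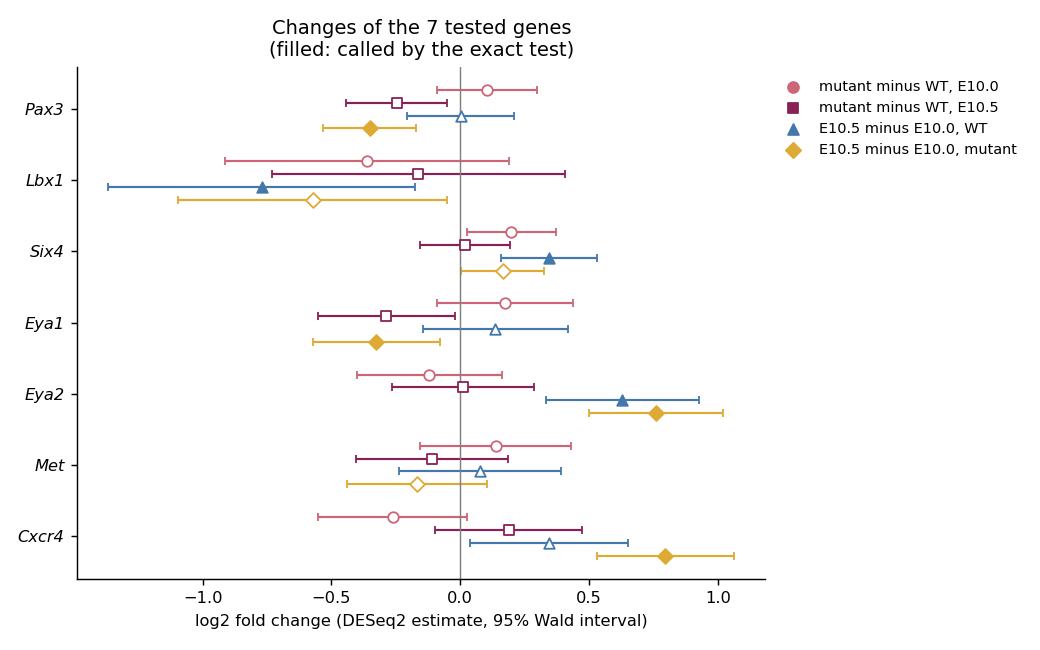
Log2 fold changes of the 7 tested genes in 4 comparisons, as DESeq2 estimates with 95% Wald intervals (horizontal axis); filled symbols were called by edgeR's exact test. All filled symbols belong to comparisons of the stages, the largest rises being those of *Cxcr4* and *Eya2* in the mutants and the largest fall that of *Lbx1* in wild type.

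The second comparison asks how the same genes changed over the 5 somite stages from E10.0 to E10.5 within each genotype. *Eya2*, a transcriptional cofactor of SIX4 and related homeodomain proteins, rose in both genotypes. *Six4* rose and *Lbx1* fell in wild type, *Cxcr4* rose in the mutants, and *Pax3* and *Eya1* fell in the mutants. This made 3 of 7 called in wild type, where 10.1% of all genes tested were called, and 4 of 7 in the mutants, where 19.2% were. An unadjusted edgeR p under 0.05 was found for 4 of 7 in wild type (21.0% of all genes) and 5 of 7 in the mutants (29.4%). The median change of the 7 genes was 0.13 in wild type and -0.17 in the mutants, beside -0.01 over all genes in each. *Met* was called in neither genotype, with log2 changes of 0.07 (interval -0.24 to 0.39) and -0.17 (interval -0.44 to 0.10).

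The rise of *Eya2* was from 7.15 ± 0.588 (SD, n = 3) to 11.01 ± 0.266 CPM (n = 3) in wild type, a log2 change of 0.62 (1.54-fold, interval 0.33 to 0.92, edgeR FDR = 0.0038). In the mutants it was from 6.52 ± 0.787 to 11.1 ± 2.01 CPM (n = 4 each), a log2 change of 0.76 (1.70-fold, interval 0.50 to 1.02, edgeR FDR = 2.44e-06). Every E10.5 embryo was above every E10.0 embryo in both genotypes, as in 16.6% of all genes in wild type and 11.1% in the mutants. The call was kept in both genotypes whichever single embryo was left out, and without mutant replicates 4 and 5 the change in the mutants was 0.66 (edgeR FDR = 0.000841).

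*Six4* rose in wild type from 52.1 ± 2.01 to 65.9 ± 2.59 CPM (n = 3 each), a log2 change of 0.34 (1.26-fold, interval 0.16 to 0.53, edgeR FDR = 0.0204). The stages did not overlap. The call was lost without wild-type replicate 2 or 3 at E10.0 (0.33 and 0.32, edgeR FDR = 0.128 and 0.101) or replicate 3 at E10.5 (0.31, edgeR FDR = 0.151). In the mutants, *Six4* went from 59.1 ± 5.81 to 66.3 ± 5.83 CPM (n = 4 each), with overlapping stages and a log2 change of 0.17 (interval 0.00 to 0.32, edgeR FDR = 0.191).

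*Lbx1* went from 4.44 ± 0.696 to 2.59 ± 0.573 CPM in wild type (n = 3 each). The stages did not overlap, as in 20.4% of all genes for this direction, and the log2 change of -0.78 (0.583-fold, interval -1.37 to -0.18) was just inside the threshold (edgeR FDR = 0.0880). The call was lost without wild-type replicate 2 or 3 at E10.0 (-0.84 and -0.63, edgeR FDR = 0.194 and 0.312), without replicate 2 or 3 at E10.5 (-0.75 and -0.63, edgeR FDR = 0.236 and 0.452), and under edgeR's quasi-likelihood test (FDR = 0.139). In the mutants, *Lbx1* went from 3.43 ± 1.41 to 2.31 ± 0.470 CPM (n = 4 each), a log2 change of -0.57 that was not called (interval -1.09 to -0.05, edgeR FDR = 0.115). That change was called without mutant replicate 1 at E10.0 (-0.78, edgeR FDR = 0.00568) or replicate 4 at E10.5 (-0.67, edgeR FDR = 0.0940), and was -0.49 without replicates 4 and 5 of both stages (edgeR FDR = 0.354).

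*Pax3* fell in the mutants from 29.2 ± 3.23 to 22.9 ± 1.40 CPM (n = 4 each), a log2 change of -0.35 (0.785-fold, interval -0.53 to -0.17, edgeR FDR = 0.00557). Every mutant embryo at E10.5 was below every mutant embryo at E10.0, as in 8.91% of all genes in the mutants. In wild type it was at 27.5 ± 2.80 and 27.4 ± 1.36 CPM (n = 3 each), a log2 change of -0.01 (interval -0.21 to 0.21, edgeR FDR = 0.989). Without mutant replicates 4 and 5, the change in the mutants was -0.25 and was not called (edgeR FDR = 0.214). Of 7 sclerotome and somite genes, 4 were tested in the mutants: *Meox1* fell (log2 change -0.57, edgeR FDR = 0.000252), *Pax1* rose (2.79, edgeR FDR = 4.63e-16), and *Tcf15* (0.35) and *Foxc2* (-0.01) were not called. Their median was 0.17, and the summed level of the list was 28.8 to 40.3 CPM at E10.0 and 28.5 to 31.6 CPM at E10.5. The part of somite tissue in the change of *Pax3* was not tested.

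*Eya1* fell in the mutants from 37.0 ± 5.20 to 29.6 ± 5.11 CPM (n = 4 each), a log2 change of -0.32 with overlapping stages (interval -0.57 to -0.08, edgeR FDR = 0.0477). The call was lost without mutant replicate 3 or 4 at E10.0 (-0.30 and -0.23, edgeR FDR = 0.132 and 0.199), replicate 4 or 5 at E10.5 (-0.26 and -0.26, edgeR FDR = 0.163 and 0.173) or replicates 4 and 5 of both stages (-0.10, edgeR FDR = 0.686). It was also lost when the mutants were fitted alone with their replicate numbers as a block (-0.31, edgeR FDR = 0.163). In wild type, *Eya1* was at 33.2 ± 3.33 and 36.3 ± 3.02 CPM (n = 3 each), a log2 change of 0.13 (interval -0.15 to 0.42, edgeR FDR = 0.658).

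*Cxcr4* rose in the mutants from 7.16 ± 1.54 to 12.4 ± 0.906 CPM (n = 4 each), a log2 change of 0.80 (1.74-fold, interval 0.53 to 1.06, edgeR FDR = 8.59e-07). The stages did not overlap, the call was kept whichever single embryo was left out, and the change was 0.95 without replicates 4 and 5 (edgeR FDR = 1.02e-05). In wild type it went from 8.67 ± 0.851 to 10.96 ± 0.445 CPM (n = 3 each), also without overlap, with a log2 change of 0.34 that was not called (interval 0.04 to 0.65, edgeR FDR = 0.204). When the 2 wild-type groups were fitted alone, this change was called (0.35, edgeR FDR = 0.0526), as it was when mutant replicates 4 and 5 were left out of the shared fit (0.35, edgeR FDR = 0.0938). Of 8 endothelial genes, 0 were called higher with stage in the mutants and *Kdr* was called lower, and their summed level was 322 to 380 CPM at E10.0 and 317 to 367 CPM at E10.5. The 3 tested macrophage genes *Csf1r*, *Cx3cr1* and *Ptprc* rose with stage in both genotypes, and the summed level of the 4 listed went from 5.19 to 6.66 CPM at E10.0 to 9.38 to 17.4 CPM at E10.5 in the mutants. The part of these cells in the rise of *Cxcr4* was not tested.

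Whether the change with stage differed between the genotypes was tested by the interaction term of edgeR's quasi-likelihood model. None of the 7 genes passed, as against 0.186% of all genes. The stage change was lower in the mutants for *Pax3* (difference of the log2 changes -0.34, interval -0.63 to -0.08, edgeR FDR = 0.778) and *Eya1* (-0.45, interval -0.84 to -0.09, edgeR FDR = 0.797), and higher for *Cxcr4* (0.46, interval 0.04 to 0.86, edgeR FDR = 0.797). These 3 genes had an unadjusted edgeR p under 0.05, as did 5.76% of all genes. The called stage changes of *Pax3*, *Eya1* and *Cxcr4* in the mutants are therefore not shown to differ from the uncalled ones in wild type, and the same holds for *Six4* (-0.17, edgeR FDR = 0.950) and *Lbx1* (0.21, edgeR FDR = 0.963).

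The ligands, partners and regulators of the set were described from a list of 12 genes, of which 11 were tested (*Fgfr4* was not). Between genotypes, 4 of 11 were called at E10.0 (6.61% of all genes) and 3 of 11 at E10.5 (3.73%), with median log2 differences of 0.12 and 0.13. The chemokine *Cxcl12*, the ligand of CXCR4, was at 79.1 to 92.1 CPM in wild type and at 115 to 131 CPM in the mutants at E10.5, without overlap (log2 difference 0.49, edgeR FDR = 0.00526). It rose with stage in the mutants (log2 change 0.60, edgeR FDR = 5.61e-06), whereas in wild type its change of 0.32 was not called (edgeR FDR = 0.124). *Cxcr7*, the scavenging receptor of the same chemokine, was lower in the mutants at E10.0 (24.9 ± 2.43 CPM in wild type, n = 3, and 19.0 ± 2.70 in the mutants, n = 4; edgeR FDR = 0.0291) and at E10.5 (31.1 ± 0.431 and 21.7 ± 1.53 CPM; edgeR FDR = 0.000531).

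*Hgf*, the ligand of MET, was at 28.8 ± 1.21 CPM in wild type (n = 3) and 31.1 ± 2.48 CPM in the mutants (n = 4) at E10.0, and at 23.1 ± 1.40 and 26.3 ± 2.26 CPM at E10.5. It was called in neither genotype comparison (edgeR FDR = 0.607 and 0.549) and fell with stage in wild type (log2 change -0.32, edgeR FDR = 0.0507). The guidance receptor *Epha4* was higher in the mutants at E10.0 (log2 difference 0.38, edgeR FDR = 0.0779). *Meox2* was higher in the mutants at E10.5 (44.4 ± 4.26 CPM in wild type and 63.5 ± 3.10 CPM in the mutants, edgeR FDR = 0.00324).

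These list counts depended on single embryos. At E10.0, the same number was called without mutant replicates 4 and 5, with *Msx1* in place of *Cxcr7*. The 4 called with all embryos became 1 without mutant replicate 5 (*Cxcr7* and *Epha4* lost) and 2 without wild-type replicate 2 or 3 (*Cxcr7* kept, *Epha4* lost), and the 3 called at E10.5 became 5 without mutant replicates 4 and 5. With stage, 7 of 11 were called in wild type (10.1% of all genes), 5 higher and 2 lower, and 9 of 11 in the mutants (19.2%), 6 higher and 3 lower. The count in wild type was 4 without replicate 2 at E10.0 or replicate 2 or 3 at E10.5. *Epha4* and *Meox2* rose in both genotypes, with log2 changes of 0.61 and 1.09 in wild type and 0.47 and 1.29 in the mutants, and *Msx1*, a repressor of differentiation in precursors and mesenchyme, fell in both (-0.93 and -0.81, edgeR FDR = 0.0388 and 0.0232). *Gab1*, the docking protein of MET signalling, rose in the mutants (0.32, edgeR FDR = 0.000664), where the ephrin *Efna5* and the hedgehog mediator *Gli3* fell (-0.34 and -0.45, edgeR FDR = 0.00278 and 0.000353).

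Of 7 other genes of the *Six4*, *Eya* and *Dach* families, 6 were tested. In the mutants at E10.0, 1 of 6 was called higher and 1 lower, where 6.61% of all genes were called. The lower one was *Six5* (log2 difference -0.41, edgeR FDR = 0.0409). At E10.5, 0 of 6 were called (3.73% of all genes). With stage, 3 of 6 were called higher in wild type (10.1% of all genes called) and 3 of 6 in the mutants (19.2%). Among them, *Eya4* and *Six2* rose in both genotypes, with log2 changes of 0.47 and 1.30 in wild type and 0.46 and 1.14 in the mutants.

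Genes that act after migration were called between genotypes. Of 12 myogenic factors and early muscle genes, 8 were tested, and 5 were higher in the mutants at E10.0 (*Actc1*, *Cdh15*, *Chrna1*, *Myf5* and *Myog*) with a list median of 1.18, where 6.61% of all genes were called. At E10.5, where 3.73% were, *Chrna1* was higher and *Actc1*, *Des* and *Myog* were lower, with a median of -0.43. *Myog*, the differentiation factor, was at 0.102 to 0.274 CPM (5 to 15 reads) in wild type and at 2.16 to 5.63 CPM in the mutants at E10.0 (edgeR FDR = 1.43e-06), and at 3.02 to 7.75 CPM in wild type and at 0 to 1.503 CPM in the mutants at E10.5 (edgeR FDR = 0.000157). The genotypes did not overlap at either stage, and their order was reversed. *Myf5*, the first myogenic factor to be expressed, was at 0.374 to 0.749 CPM in wild type and at 0.935 to 1.98 CPM in the mutants at E10.0 (edgeR FDR = 0.00220), and its groups overlapped at E10.5 (edgeR FDR = 0.867).

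The same 5 myogenic genes were called at E10.0, and the same 4 at E10.5, without mutant replicates 4 and 5. The interaction was called for *Actc1* and *Myog* (edgeR quasi-likelihood FDR = 0.0149 for both) and for *Myog* alone without these replicates. Of 6 mesothelium and body wall genes, 5 were tested, and *Lrrn4*, *Upk3b* and *Wt1* were higher in the mutants at E10.0 while *Upk3b* and *Wt1* were lower at E10.5. The summed level of this list was 8.28 to 11.7 CPM in wild type and 15.8 to 29.6 CPM in the mutants at E10.0, and 10.98 to 13.8 and 6.38 to 10.3 CPM at E10.5. That of the myogenic list was 27.1 to 28.9 and 42.6 to 49.4 CPM at E10.0, and 42.2 to 67.7 and 34.3 to 45.7 CPM at E10.5. Both lists were thus higher in the mutants at E10.0. Of 4 tested sclerotome and somite genes, *Meox1* and *Tcf15* were then also called higher (log2 differences 0.40 and 0.52, edgeR FDR = 0.0788 and 0.0845). *Pax1* was called lower (-2.87, edgeR FDR = 6.09e-15). The summed level of that list was 28.4 to 29.3 CPM in wild type and 28.8 to 40.3 CPM in the mutants at E10.0. The part of body wall or somite tissue in the myogenic difference was not tested. The summed level of the 8 precursor genes was 177 to 198 CPM in wild type and 195 to 217 CPM in the mutants at E10.0, and 208 to 224 and 185 to 230 CPM at E10.5, so that its groups overlapped at both stages. *Met* and *Six4*, which other cells also express, had the largest parts of it (means of 56.9 and 52.1 CPM in wild type at E10.0), whereas *Lbx1* gave 4.44 CPM. The sum is therefore not a measure of the number of precursors.

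**Figure D3:**
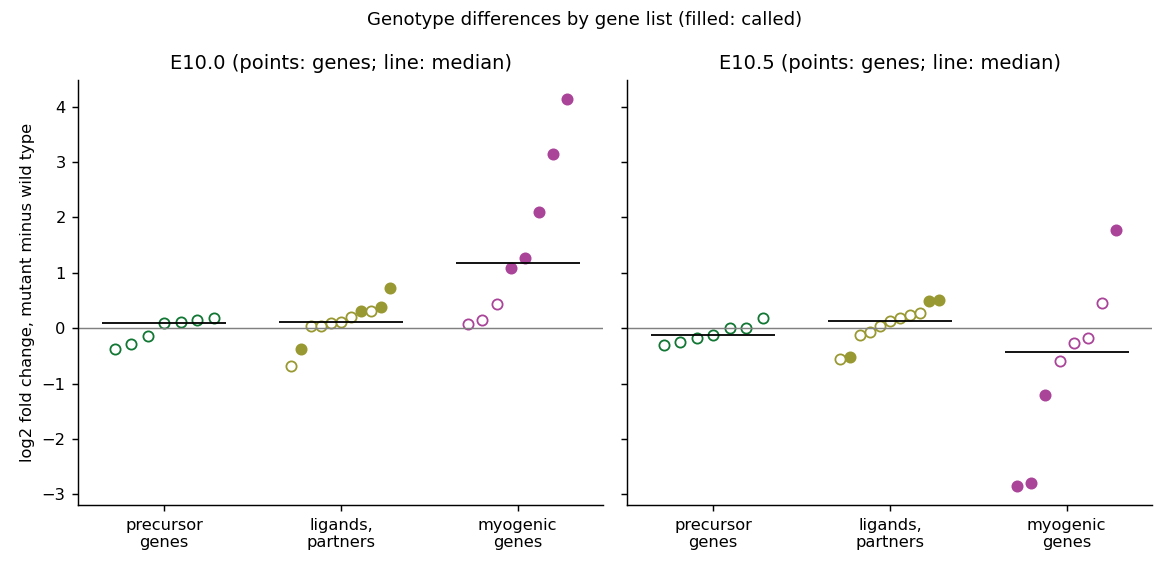
Log2 fold changes between genotypes (mutant minus wild type, vertical axis) of the tested genes of 3 lists at E10.0 and E10.5; each point is a gene, filled where called by edgeR's exact test, and lines mark list medians. The 7 precursor genes stay between -0.38 and 0.18 at both stages, whereas the 8 myogenic genes reach 4.14 at E10.0 and -2.85 at E10.5.

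Whether embryos of 1 group that were high for 1 of the 8 genes were high for the others was examined through the deviations of log2(CPM + 1) from the group means over the 14 embryos. At a Benjamini-Hochberg adjusted p of 0.05, none of 28 pairs passed an exact permutation test within groups, by r or by rho. The smallest unadjusted p of Pearson's r was that of *Met* and *Eya1* (r = 0.80, exact permutation p = 0.00728, adjusted 0.204; Spearman's rho = 0.78, exact permutation p = 0.00936, adjusted 0.131). Without the 2 embryos farthest from the median, r was 0.68. *Pax3* and *Lbx1*, which are made by the same migrating cells, gave r = 0.46 (exact permutation p = 0.235, adjusted 0.555) and rho = 0.33 (exact permutation p = 0.342, adjusted 0.563), and r was -0.21 without the 2 farthest embryos. *Lbx1* and *Six4* deviated in opposite directions (r = -0.73, exact permutation p = 0.0261, adjusted 0.271; rho = -0.84, exact permutation p = 0.00188, adjusted 0.0527), with r = -0.75 without the 2 farthest embryos.

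The deviations of *Lbx1* followed the base composition of the libraries. Over the 11910 tested genes with a transcript sequence (96.1% of those tested), each embryo's deviation was regressed on GC content, which gave slopes of -0.20 to 0.16 in log2(CPM + 1) per 10 percentage points of GC. The *Lbx1* transcript has 61.6% GC, above 97.9% of the tested genes, and its deviation had r = 0.89 with the slope (exact permutation p = 0.000627, adjusted over 8 genes 0.00502; rho = 0.83, exact permutation p = 0.00222, adjusted 0.0177). It was 0.80 without the 2 farthest embryos and 0.97 in the 10 samples other than mutant replicates 4 and 5. None of the other 7 genes had an adjusted p under 0.05 over all embryos, although r was -0.87 for *Met* and -0.91 for *Eya1* without the 2 farthest embryos (-0.61 and -0.29 with all). *Eya2* (55.0% GC) gave r = 0.69 over all embryos (exact permutation p = 0.0517, adjusted 0.142; rho = 0.73, exact permutation p = 0.0316, adjusted 0.0844) but -0.36 in those 10 samples, and *Six4* (46.6% GC) gave r = -0.67 (exact permutation p = 0.0610, adjusted 0.142; rho = -0.67, exact permutation p = 0.0270, adjusted 0.0844).

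**Figure D4:**
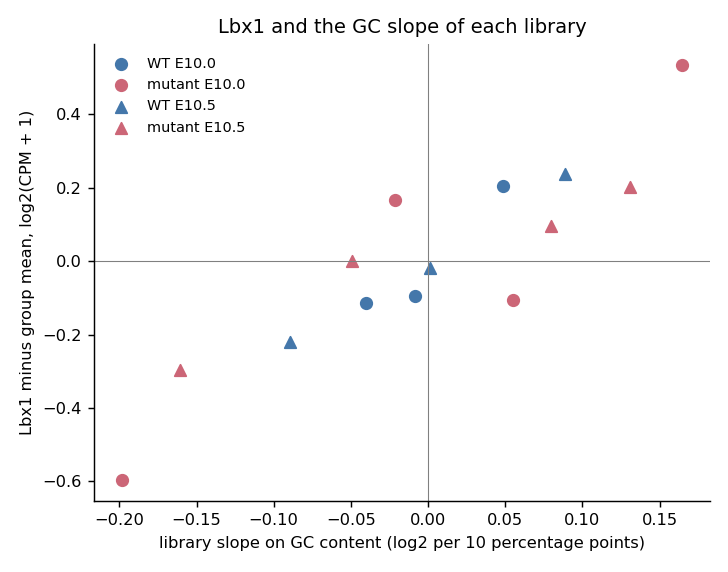
Deviation of *Lbx1* from its group mean in log2(CPM + 1) (vertical axis) against the slope of each library's deviations on GC content (horizontal axis, log2 per 10 percentage points) for the 14 embryos, coloured by genotype with the stage as symbol. The 2 mutant embryos at the ends, E10.0 replicates 1 and 4, have slopes of -0.20 and 0.16.

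The slope also differed between the wild-type stages. Measured from the mean of all 14 samples, it was 0.07, 0.10 and 0.16 in the E10.0 wild-type embryos. In those of E10.5, it was 0.06, -0.03 and -0.12, and *Lbx1* was lower there. In the E10.0 mutants, the slope was -0.21 and -0.03 in replicates 1 and 3, and 0.16 and 0.05 in replicates 4 and 5. Without replicates 4 and 5, the genotype comparison of *Lbx1* at E10.0 thus set mutants of lower slopes against wild type. With offsets for GC content in edgeR's quasi-likelihood test, the stage change of *Lbx1* in wild type was -0.58 and was not called (FDR = 0.108), as it was not in the same test without offsets (-0.78, FDR = 0.139). With the offsets, that in the mutants was -0.49 and was called (FDR = 0.0729), and those of *Eya2*, *Six4*, *Pax3*, *Eya1* and *Cxcr4* that were called above stayed called. In a fit of the mutants alone with both the replicate block and the GC offsets, *Cxcr4*, *Eya2* and *Pax3* were called and *Lbx1* was at -0.38 (edgeR FDR = 0.181).

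The genes whose deviations were most like those of *Lbx1* over the 14 embryos were *Fam173a* (r = 0.97), *Ttll12* (0.97), *Kctd10* (0.96), *Hps4* (0.96) and *Cant1* (0.96). Their transcripts had 53.7% to 59.1% GC, above the median of 50.5%, and their own deviations had r = 0.84 to 0.96 with the GC slope. The likeness is given as a description, since the points share their libraries. For *Pax3* (48.5% GC), the nearest genes were *Sp7* (r = 0.88), *Meis3* (0.86), *Atg9b* (0.86), *Kdm2b* (0.84) and *Wfikkn1* (0.84). Their transcripts had 53.0% to 58.6% GC, and their deviations had r = 0.39 to 0.67 with the slope.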

How the data were processed

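Forelimb bud RNA of 14 embryos was sequenced by the authors as unstranded polyA libraries in single reads. Per the submitters' processing notes and the methods, reads were aligned to mm9 with TopHat2 2.0.13 and counted per gene symbol with HTSeq, and the deposited values are these raw counts. Reads that hit several places or several genes are not in them.

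Groups and replicate numbers were taken from the sample titles, and all samples are separate embryos. Genes with 1 CPM or more in at least 3 samples that lie outside chromosomes X, Y and M were tested (12393). Counts were normalized by TMM in edgeR 4.0.16 (R 4.3.3), and groups were compared by its exact test with tagwise dispersions over the 14 samples (prior df 10), at FDR ≤ 0.1 and a fold change ≥ 1.2. The interaction was tested by edgeR's quasi-likelihood model at FDR ≤ 0.1. Intervals are 95% Wald intervals of DESeq2 1.42.0. Permutation tests were two-sided and covered all 20736 rearrangements of embryos within groups (smallest possible p 4.82e-05), in scipy 1.17.1. The exact test and the quasi-likelihood test were also run on simulated counts, which held no GC slope and no split of the mutant replicates. DESeq2, the replicate block and the GC offsets were not tested in this way.

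The 8 genes and all lists were chosen with earlier results of these data known. The 8 are always named; of other lists, genes called in a comparison are named, up to 4 by smallest p, and the further ones (*Hgf*, *Msx1*, *Gab1*, *Efna5*, *Gli3*, cell type markers) were chosen after their values were seen. The counts of these lists cover all their tested genes, of which a few are not reported here by name. For likeness, the 5 genes with the highest r were taken.

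No replicates agreed within sampling noise (chi-square per degree of freedom of 14 or more). Same-numbered mutants of the 2 stages deviated together (r = 0.57, 0.61 and 0.27 in 3 pairs). Differently numbered mutants did so too within replicates 1 to 3 or within replicates 4 and 5 (r = 0.11 to 0.38). Pairs across these 2 sets had r = -0.59 to -0.17, so a pairing by number cannot be told from this split. The mutants were also fitted alone with the number as a block, after the same-numbered pairs were seen. The numbers did not pair wild-type stages or genotypes.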

Additional observations from a re-analysis of the deposited data

How the results depend on the processing

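Of the 7 tested genes, 0 were called between genotypes at E10.0 in every fit that left out 1 embryo (0 to 0). With only replicates 1 to 3 there was 1 of 7 (*Cxcr4*, -0.44), where 2018 of all 12288 genes tested were called. With the replicate block there were 2 of 7, where 1961 of all 12393 genes were called. These 2 were *Cxcr4* (-0.42, edgeR FDR = 0.0767) and *Eya2* (-0.33, FDR = 0.0592). Same-numbered wild-type and mutant embryos share only a number, however (r = -0.26 to 0.17). At E10.5, fits without 1 embryo gave 0 to 1. With stage they gave 1 to 3 in wild type and 3 to 5 in the mutants, and for the interaction 0 to 0. Replicates 1 to 3 alone gave 2 with stage in the mutants, where 2151 of all 12288 genes tested were called. Without mutant replicate 1 at E10.5, the change of *Met* with stage in the mutants was called (-0.29, edgeR FDR = 0.0933). Without a filter on low counts, that of *Lbx1* in wild type was lost (-0.77, FDR = 0.119).

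Values near 0 changed sign. For *Met* at E10.5 the genotype difference was 0.10 with replicates 1 to 3 and 0.044 with the replicate block, and for *Eya2* it was -0.22 and -0.20, against -0.087 to 0.096 without 1 embryo. Leaving out 1 embryo gave -0.30 to 0.012 for *Lbx1* and -0.046 to 0.050 for *Six4* at E10.5, -0.020 to 0.13 for the stage change of *Met* in wild type and -0.011 to 0.46 for the interaction of *Lbx1*. The stage change of *Pax3* in wild type was 0.00114 with DESeq2, 0.00115 with RLE size factors, 0.00417 without the filter, 0.00338 with only the groups compared in the fit, 0.00695 with replicates 1 to 3 and -0.057 to 0.078 without 1 embryo. The cause was not tested.

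Over all genes, the calls between genotypes at E10.0 went from 819 to 1961 with the replicate block, 2018 with replicates 1 to 3, and 254 to 1062 without 1 embryo. At E10.5 they went from 462 to 280 with the block and 286 to 516 without 1 embryo. With stage in wild type they went from 1256 to 1932 with only the groups compared in the fit and 484 to 1515 without 1 embryo. The 23 of the interaction became 87 with DESeq2, 42 with GC offsets, 39 without the filter, 6 with replicates 1 to 3 and 7 to 34 without 1 embryo. The GC offsets and the fits of the mutants alone were chosen after seeing the data. At 77 to 238 reads, *Lbx1* had the widest intervals of the tested genes, and those of *Pax7* (9 to 43 reads) were wider still, so that large differences remain possible.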
